A study of Mus musculus with 16 samples.

Results

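The 10 genes described here encode the machinery that turns prohormones into bioactive peptides and the granins that fill dense-core granules: Pcsk1, Pcsk2, Cpe, Pam, Chga, Chgb, Scg2, Scg3, Scg5 and Vgf. They were taken by gene symbol, all 10 were found among the 24411 genes of the count and TPM files, and all 10 were among the 16665 genes that passed the filter on low counts. The genes were selected on RNA levels and group differences seen in earlier results of these same libraries, so their levels and calls are given as a description and are no independent evidence of a direction.

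RNA-seq was performed on 12 celiac ganglia libraries from 2-week-old mice and on 4 neuroblastoma libraries, which the labels call tumour and for which no age is given. Th-MYCN mice, kept on a 129/SvJ background, carry human MYCN behind the tyrosine hydroxylase promoter and form neuroblastomas. The Runx1t1 knock-out allele comes from a strain of another background (CBB6) that was crossed with Th-MYCN. Transgene-free ganglia were wild type for Runx1t1 in 4 libraries and heterozygous in 3, ganglia homozygous for Th-MYCN were wild type for Runx1t1 in 3 and heterozygous in 2, and the 4 tumors were Th-MYCN homozygous with wild-type Runx1t1. The question put to these groups was how ganglia with and without the transgene, and with 1 or 2 copies of Runx1t1, compare with the tumors. Tissue and genotype beyond Runx1t1 cannot be told apart in the comparison of tumors with transgene-free ganglia, since no tumor lacked the transgene.

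Peptide hormones and neuropeptides are made as larger precursors that enter the regulated secretory pathway. In the acidifying granule, the prohormone convertases cut at paired basic residues, a carboxypeptidase trims the exposed basic residues, and an amidating enzyme modifies the C-terminus of many peptides. Granins are acidic proteins that aggregate with the cargo and are themselves cut into peptides. Sympathetic neurons and the chromaffin cells related to them store catecholamines together with neuropeptide Y and granins in such granules, and chromogranin A is a classical marker of neuroendocrine tumors such as neuroblastoma.

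The genes lie on 7 chromosomes of GRCm38 in the GENCODE vM21 annotation. The convertase gene Pcsk1 spans chr13:75089826-75134861 on the plus strand and Pcsk2 spans chr2:143546156-143816285 on the plus strand. Scg5, whose product is the chaperone of the Pcsk2 enzyme, lies at chr2:113776362-113829121 on the minus strand. The trimming enzyme gene Cpe lies at chr8:64592542-64693054 and the amidating enzyme gene Pam at chr1:97795114-98095646, both on the minus strand. Of the granin genes, Chga lies at chr12:102554969-102565028 and Chgb at chr2:132781278-132795079 on the plus strand, Scg2 at chr1:79434669-79440120 and Scg3 at chr9:75643189-75684056 on the minus strand, and Vgf at chr5:137026392-137033351 on the plus strand. Pcsk2 overlaps the genes Pcsk2os1 and Pcsk2os2, and its estimated counts were fractional in all 16 libraries. Pam overlaps B230216N24Rik and had whole counts in all 16.

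Promoter windows were read from RefSeq sequence of GRCm38.p6 for 8 of the 10 genes; Cpe and Vgf had no entry. Each window ran from 250 bases before to 50 bases after the RefSeq transcription start. Both strands were searched for the cAMP response element TGACGTCA, for its shorter form TGACG, which every full element also contains, and for the E-box. The E-box was searched as CACGTG. The full element was found for 3 of the 8 genes, Pcsk1, Chgb and Scg2, against 2.03% of 27025 genes with a window and 1.79% of all 32851 windows. The stretches below are those of the 3 genes with the full element, and Chga, with the shorter form alone, is added as the closest relative of Chgb. Any relation of the element to the levels of these genes was not tested. Each runs 5′ to 3′ on the strand of its gene, with the matched letters in capitals.
Pcsk1: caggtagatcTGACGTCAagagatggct
Chgb: ggctgctccgTGACGTCAgggctgagcg
Scg2: gctgagccggTGACGTCAgcgtggaatg
Chga: ggcggtcctaTGACGtaatttcctg
The Pcsk1 stretch covers chr13:75089769-75089796 on the plus strand and its element begins 78 bases before the start. The Chgb stretch covers chr2:132781560-132781587 on the plus strand, with the element 72 bases before the start. The Scg2 stretch covers chr1:79440077-79440104 on the minus strand, with the element 68 bases before the start. The Chga stretch covers chr12:102554887-102554911 on the plus strand, 44 bases before the start. RefSeq starts differ from the GENCODE gene ends given above, and the Chgb and Scg2 stretches lie inside the GENCODE spans of their genes. Of the 8 genes, all but Pam held the shorter form, and Pcsk2, Chga, Scg3 and Scg5 held it without the full element. The shorter form was present in 20.8% of all windows and for 23% of the genes with a window. The E-box was present in 7.15% of all windows, and no window of the 8 genes held it. A match describes the letters of the window and is not a measured binding site.

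The libraries held 10692299 to 38618757 assigned counts. Depth followed the replicate number in ganglia, with 10692299 to 14221960 counts in replicates 1 and 2 and 24873952 to 36337191 in replicates 3 and 4. Both MYCN ganglia labelled het were among the shallow libraries and all 4 tumors held 27096032 counts or more, so depth and group cannot be told apart between those groups alone. The ribosomal RNA gene Rn45s took 8.57% to 12.8% of the counts in the tumors, 8.8% in the first MYCN wild-type replicate and 2.15% to 5.64% in the other ganglia. Runx1t1, the gene targeted in the heterozygotes, was at 2.78 to 4.41 TPM in transgene-free wild-type ganglia and at 4.36 to 6.28 TPM in those labelled het. With Th-MYCN it was at 7.9, 37.44 and 70.34 TPM in wild-type ganglia and at 8.83 and 16.86 TPM in those labelled het, a lower mean in groups that overlapped. The level was thus not lower in both het groups, and het is used here as a label. All 8 sympathetic neuron markers were detected, with a summed level of 5780 to 16830 TPM in ganglia and 1933 to 2761 TPM in tumors. Markers of other cells moved with the groups as well. The 6 glial markers summed to 457.5 to 1839 TPM in ganglia and 12.17 to 19.97 TPM in tumors, and the 4 proliferation genes to 14.54 to 154.1 TPM in transgene-free ganglia and 831.4 to 961.3 TPM in tumors. The 6 fibroblast markers summed to 888 to 7899 TPM in ganglia and 170.8 to 506.4 TPM in tumors, and all 6 were called lower without overlap against each kind of ganglia. Against transgene-free ganglia, 4 of 5 endothelial markers were lower (sums of 43.38 to 511.4 TPM and, in tumors, 26.89 to 68.58 TPM) and 2 of 4 myeloid markers were higher (17.96 to 331.3 and 90.46 to 241.4 TPM). The chromaffin markers Pnmt and Slc18a1 summed to 9.89 to 47.83 TPM in ganglia and 1.43 to 4.34 TPM in tumors. Of 5 adrenal cortex markers, 4 were lower in tumors than in transgene-free ganglia (sums of 3.02 to 5.32 and 5.37 to 50.55 TPM). Slc18a1 carried the chromaffin sum in ganglia, whereas in tumors the means were 1.36 TPM for Slc18a1 and 1.83 TPM for Pnmt. In tumors against transgene-free ganglia Slc18a1 was lower (−3.31 ± 0.49), while Pnmt had a fitted difference of 2.18 ± 1.13 (edgeR, adjusted p = 0.11). Pancreatic islet cells, which also use both convertases, left at most 1.11 TPM over 3 markers, with Ins1 at 0 in every library and all 3 at 0 in the tumors. In bulk tissue, fewer cells of a type and less RNA per cell cannot be told apart, and the part of these shifts in the differences below was not tested.

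Replicate 2 of the transgene-free wild-type ganglia stood apart. It was the lowest of the 7 transgene-free libraries for all 10 genes, its neuron markers summed to 5803 TPM and its lymphocyte markers to 475.1 TPM. Replicate 1 of the MYCN wild-type ganglia had neuron markers at 5780 TPM, fibroblast markers at 888 TPM and proliferation genes at 726.5 TPM. Replicate 3 of that group differed the other way in proliferation genes, at 47.57 TPM against 344.3 TPM in replicate 4. That value lay inside the 33.34 to 138 TPM of the MYCN ganglia labelled het. Counts of all genes called without this replicate 3 are given below. Calls among the 10 genes that turn on any of these libraries are named where they occur.

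In transgene-free ganglia, the granins and the modifying enzymes were abundant and the convertases that begin the processing were the least abundant of the 10. Median levels over the 7 libraries ran in the order Chgb at 565.2 TPM, Cpe at 377.5, Chga at 375.2, Pam at 317.3, Scg5 at 273.4, Scg3 at 268.4, Scg2 at 126.8, Vgf at 111.3, Pcsk1 at 61.03 and Pcsk2 at 21.15. The ranges of all neighbours in this order overlapped. Within a library, Pcsk1 exceeded Pcsk2 in 7 of 7, Scg3 exceeded Scg2 in 7 of 7 and Vgf exceeded Pcsk1 in 7 of 7, whereas Scg5 exceeded Scg3 in only 2 of 7. The median over libraries of the rank among all genes by TPM was 220 for Chgb and 3122 for Pcsk1. In the tumors the order was Chgb at 877.6 TPM, Chga at 397.6, Scg3 at 120.4, Cpe at 110.1, Scg5 at 90.37, Pam at 44.64, Vgf at 15.65, Scg2 at 7.11, Pcsk2 at 7.07 and Pcsk1 at 0.01. There Chga did not overlap Scg3, Pam did not overlap Vgf, Vgf did not overlap Scg2 and Pcsk2 did not overlap Pcsk1, while the remaining neighbours overlapped.

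**Figure D1:**
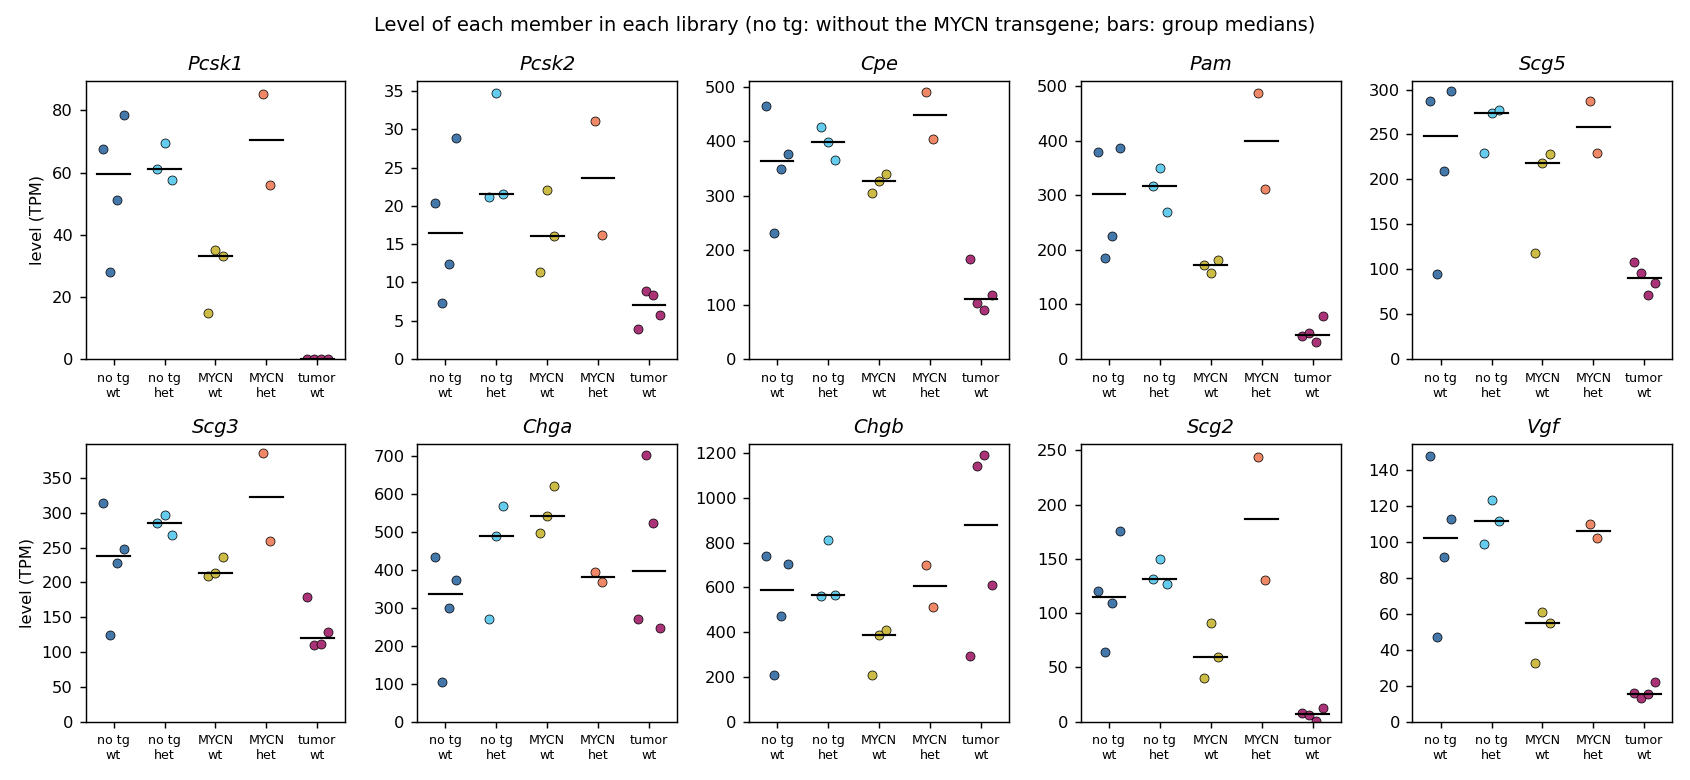
Level in TPM of each of the 10 genes (1 panel a gene, each with its own linear axis from 0) in every library of the 5 groups, with bars at group medians. Pcsk1 lies at 0 to 0.04 TPM in the 4 tumors and at 14.71 TPM or more in every ganglion, Scg2, Pam and Vgf are low in tumors, and Chga and Chgb spread across the ganglion range or above it.

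Tumors were first set against the 7 transgene-free ganglia. In this comparison 9 of the 10 genes passed the test, 8 lower and Chgb higher in tumors, where 61.4% of all tested genes passed, 30.9% lower and 30.6% higher. The median log2 fold change was −1.18 over the 10 genes and −0.06 over all tested genes. The groups did not overlap, with tumors lower, for 4 of the 10, Pcsk1, Scg2, Vgf and Pam, beside 21.5% of all genes, and with tumors higher for 0 of the 10, beside 22.7%. Overlap in these counts was judged on CPM, counts scaled to the library total after TMM normalization. Fold changes on the log2 scale are from edgeR's quasi-likelihood test on the counts, and levels are TPM.

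Pcsk1 encodes prohormone convertase 1/3, which makes the first cuts in many precursors, and its RNA was close to absent from the tumors. Wild-type transgene-free ganglia held 67.74, 27.9, 51.11 and 78.52 TPM in replicates 1 to 4, and those labelled het held 61.03, 69.41 and 57.46 TPM in replicates 1, 3 and 4. MYCN wild-type ganglia held 14.71, 35.11 and 33.1 TPM in replicates 1, 3 and 4, and MYCN ganglia labelled het held 85.2 and 55.98 TPM. Tumors held 0, 0.02, 0 and 0.04 TPM. Even the lowest ganglion was far above every tumor. The tumor values rest on 0, 1, 0 and 2 counts, 3 in all, so that the ratio of transgene-free ganglia to tumors was 2370, with an exact Poisson 95% interval of 811 to 11500 that covers counting error only. The same ratio was 1130 (387 to 5490) for MYCN wild-type ganglia and 2730 (934 to 13200) for MYCN ganglia labelled het.

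Pcsk2 encodes convertase 2, which acts after convertase 1/3 on many of the same precursors, and it was lower in tumors but remained measurable. Wild-type transgene-free ganglia held 20.41, 7.27, 12.42 and 28.82 TPM, and those labelled het held 21.15, 34.78 and 21.56 TPM. Tumors held 3.97, 8.85, 8.33 and 5.8 TPM. The tumors lay below all transgene-free ganglia but replicate 2 of the wild type, and their mean was 3.1 times lower. The log2 fold change was −1.21 ± 0.35 (SE; n = 4 and 7). Pcsk1 was at 1.3 to 4.12 times the level of Pcsk2 in the ganglia, whereas Pcsk2 was the more abundant of these convertases in all 4 tumors.

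Scg5 encodes 7B2, the chaperone that Pcsk2 needs to mature. Wild-type transgene-free ganglia held 286.88, 95.1, 209.39 and 298.13 TPM, those labelled het 229.03, 273.41 and 276.96 TPM. Tumors held 108.22, 96.0, 71.34 and 84.73 TPM. The groups overlapped only through replicate 2 of the wild-type ganglia, and the log2 fold change was −0.96 ± 0.25. Pcsk1n, which encodes proSAAS, an inhibitor of convertase 1/3 and not one of the 10, was also lower in tumors, at 101.3 to 163 TPM against 311.6 to 919.8 TPM in transgene-free ganglia, with a log2 fold change of −2.0 ± 0.26.

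Cpe encodes carboxypeptidase E, which removes the basic residues that the convertases leave. Wild-type transgene-free ganglia held 465.52, 230.74, 348.49 and 377.54 TPM and those labelled het 426.12, 398.39 and 365.51 TPM, against 183.97, 103.01, 90.05 and 117.17 TPM in tumors. All tumors lay below all of these ganglia in TPM, while in TMM-scaled CPM the highest tumor (197.75) and the lowest ganglion (197.7) met. The log2 fold change was −1.16 ± 0.20.

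Pam encodes peptidylglycine alpha-amidating monooxygenase, the enzyme that amidates peptides such as neuropeptide Y, and it fell further than Cpe. Wild-type transgene-free ganglia held 380.43, 185.55, 225.32 and 387.36 TPM and those labelled het 317.33, 349.75 and 270.14 TPM. Tumors held 42.33, 46.96, 31.68 and 78.71 TPM. The groups did not overlap, the tumor mean was 6.06 times lower and the log2 fold change was −2.16 ± 0.28.

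The granins differed among themselves. Scg2, which encodes secretogranin II, the precursor of secretoneurin, fell the most after Pcsk1. Wild-type transgene-free ganglia held 119.93, 64.25, 108.91 and 175.76 TPM and those labelled het 131.89, 149.79 and 126.79 TPM, and tumors held 8.41, 5.81, 0.74 and 12.44 TPM. Tumor replicate 3 was well below the other tumors. The mean was 18.3 times lower and the log2 fold change was −3.75 ± 0.58. The median rank of Scg2 among all genes was 1370 in transgene-free ganglia and 9443 in tumors.

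Vgf, a neurotrophin-responsive gene whose product is cut into several peptides, fell to a narrow band in tumors. The 4 wild-type transgene-free ganglia held 147.63, 46.94, 91.42 and 112.51 TPM, the 3 labelled het held 98.63, 123.29 and 111.34 TPM, and the tumors held 15.78, 13.09, 15.53 and 22.32 TPM. The groups did not overlap and the log2 fold change was −2.21 ± 0.26.

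Scg3, which encodes secretogranin III, a granin that binds chromogranin A to the granule membrane, differed least among the genes that were lower. Transgene-free ganglia ranged from 124 to 313.5 TPM with a median of 268.4, and tumors held 178.62, 109.57, 111.24 and 129.56 TPM. The groups overlapped and the log2 fold change was −0.50 ± 0.21. This call was lost in 13 of the 16 fits that left out 1 library each (adjusted p up to 0.136 by edgeR over all settings tried), so it changes with the libraries kept.

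Chga and Chgb encode chromogranins A and B, the most abundant granins of the chromaffin granule, and neither was lower in tumors. Chga was at 434.81, 106.07, 300.26 and 375.22 TPM in wild-type transgene-free ganglia and at 269.86, 491.31 and 568.33 TPM in those labelled het, and at 270.63, 703.68, 524.66 and 246.84 TPM in tumors. Tumor replicates 2 and 3 were high and 1 and 4 were within the lower ganglion values. The log2 fold change of 0.70 ± 0.34 did not pass the test (edgeR, adjusted p = 0.0907). Chgb was at 739.35, 208.05, 473.73 and 706.86 TPM in wild-type transgene-free ganglia and at 563.33, 813.67 and 565.24 TPM in those labelled het. In tumors Chgb was at 291.54, 1144.49, 1192.79 and 610.75 TPM, so that replicates 2 and 3 exceeded every ganglion and replicate 1 was below all but 1 of the transgene-free ganglia. Its log2 fold change of 0.90 ± 0.36 passed the test, but the groups overlapped and the call was lost in 9 of the 16 fits that left out 1 library, including those without tumor replicate 2 (0.67) or 3 (0.68). Without tumor replicate 4, Chga passed at 0.89. With limma on log2 TPM the Chgb difference was 0.35 ± 0.41 (limma, adjusted p = 0.465).

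These directions were also fitted with limma on log2(TPM + 1), which changes the normalization, the test and the filter (a mean of at least 1 TPM) together. The median of all genes was then −0.42 for tumors against transgene-free ganglia, −0.33 against MYCN wild-type ganglia and −0.40 against MYCN ganglia labelled het. The share of called genes that were higher in tumors then moved from 49.8% to 31.6%, from 40.7% to 19.8% and from 48.4% to 28.2%. Against that median, the Chgb difference from transgene-free ganglia was still positive, and that of Chga was 0.23 ± 0.38 in this fit.

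**Figure D2:**
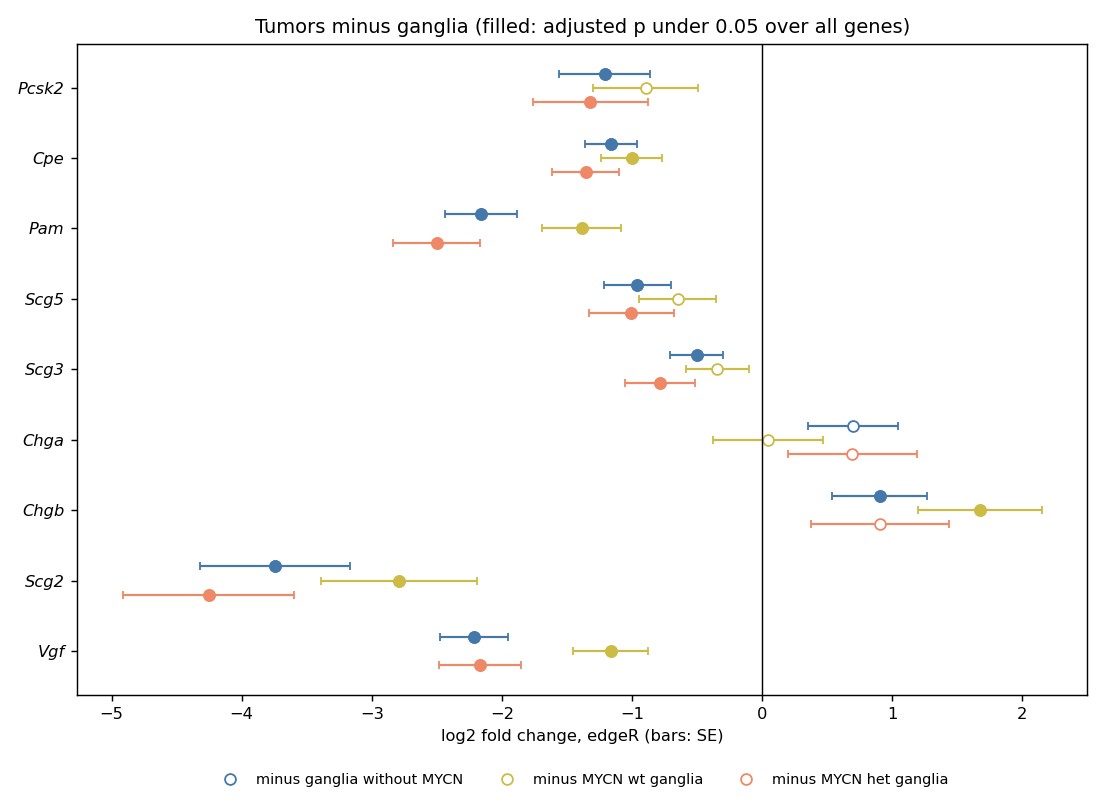
Log2 fold change (edgeR, x axis) of tumors minus each of 3 kinds of ganglia for 9 genes, with SE as bars and filled points where the adjusted p over all genes was under 0.05. Pcsk1 is left out because its tumor level rests on 3 counts; Scg2 lies farthest to the left at −2.79 to −4.25, and Chga and Chgb lie to the right of 0 in all 3 comparisons.

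Tumors were next set against MYCN wild-type ganglia, which carry the same Th-MYCN and Runx1t1 genotype, so that this comparison is the one between tissues at matched genotype. Here 6 of the 10 genes passed, 5 lower and Chgb higher, where 34.5% of all genes passed, 20.5% lower and 14% higher, and the median log2 fold change was −0.95 over the 10 genes and −0.01 over all. The groups did not overlap, with tumors lower, for 6 genes, beside 21% of all genes. These were Pcsk1, Pcsk2, Cpe, Pam, Scg2 and Vgf, and 0 of the 10 lay higher without overlap, beside 18.7% of all genes. The tumor samples are shared with the comparison above.

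Among the enzymes, Pam was at 172.4, 157.7 and 181.24 TPM in replicates 1, 3 and 4 of the MYCN wild-type ganglia, every one above the highest tumor at 78.71 TPM, with a log2 fold change of −1.39 ± 0.31. Cpe was at 304.13, 327.24 and 340.69 TPM in these ganglia and its log2 fold change was −1.0 ± 0.23. Both fell against the ganglia that share the tumors' genotype. Pcsk2 was at 11.32, 22.03 and 16.12 TPM, above the highest tumor at 8.85 TPM, but its log2 fold change of −0.89 ± 0.40 did not pass (edgeR, adjusted p = 0.0999). Scg5 was at 118.43, 218.14 and 228.36 TPM with a log2 fold change of −0.65 ± 0.30 (edgeR, adjusted p = 0.105). Scg5 passed without replicate 1 of these ganglia, the library whose neuron markers were low (−0.85), without replicate 2 of the wild-type transgene-free ganglia (−0.64), with a term for library depth (−0.76) and in the TPM fit (limma, −1.01 ± 0.34), and Pcsk2 passed in that fit as well (−1.18 ± 0.41).

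Of the granins, Scg2 was at 40.45, 90.66 and 59.35 TPM in MYCN wild-type ganglia and its log2 fold change was −2.79 ± 0.60. Vgf was at 32.39, 60.79 and 54.99 TPM, with a log2 fold change of −1.16 ± 0.29. Scg3 was at 208.76, 213.44 and 236.04 TPM, all above the highest tumor at 178.62 TPM though not in CPM, and its log2 fold change of −0.34 ± 0.24 did not pass (edgeR, adjusted p = 0.293), although it did in the TPM fit (limma, −0.75 ± 0.26). Chgb was at 207.39, 387.86 and 410.5 TPM and rose in tumors, with a log2 fold change of 1.68 ± 0.47, although tumor replicate 1 lay inside the ganglion range. The Chgb call held in all 16 fits without 1 library and was lost in the TPM fit, where the difference was 1.13 ± 0.50 (limma, adjusted p = 0.0833). Chga was at 497.72, 543.48 and 622.55 TPM, a narrow band that the tumors spanned on both sides. Its log2 fold change of 0.05 ± 0.42 (edgeR, adjusted p = 0.942) turned to −0.48 ± 0.46 in the TPM fit.

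Against MYCN ganglia labelled het, 8 of the 10 genes passed, all lower in tumors, where 45.5% of all genes passed, 23.5% lower and 22% higher. The median log2 fold change was −1.34 over the 10 genes and 0.07 over all. The groups did not overlap, with tumors lower, for the same 8 genes, beside 31% of all genes, and with tumors higher for 0, beside 32.1%. The 2 ganglia of this group held 490.66 and 404.13 TPM of Cpe, 486.94 and 311.42 TPM of Pam, 243.84 and 130.13 TPM of Scg2 and 109.81 and 101.78 TPM of Vgf. Their log2 fold changes were −1.36 ± 0.26 for Cpe, −2.50 ± 0.33 for Pam, −4.25 ± 0.66 for Scg2 and −2.17 ± 0.32 for Vgf. These 4 calls and that of Pcsk1 held in every fit without 1 library. Pcsk2 (31.13 and 16.21 TPM, −1.32 ± 0.44), Scg5 (287.05 and 229.9 TPM, −1.0 ± 0.33) and Scg3 (385.4 and 258.95 TPM, −0.78 ± 0.27) lost their calls without replicate 1 of these ganglia, with −0.80, −0.86 and −0.50, which leaves 1 ganglion assumed to vary like the other groups. With a term for library depth, Scg3 alone of the 8 lost its call (−0.78 ± 0.36, edgeR adjusted p = 0.0939). Chga was at 394.6 and 367.69 TPM and Chgb at 701.87 and 513.68 TPM, and neither passed, with log2 fold changes of 0.70 ± 0.49 (edgeR, adjusted p = 0.269) and 0.91 ± 0.53 (adjusted p = 0.181). Without tumor replicate 1 Chgb passed, at 1.18. In the TPM fit (limma) the differences were smaller, at 0.06 ± 0.52 for Chga and 0.23 ± 0.57 for Chgb.

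The make-up of the pool of these transcripts was compared as well. Summed over the 10 genes, the level was 1096 to 3001 TPM in transgene-free ganglia, 1608 to 2183 TPM in MYCN wild-type ganglia, 2390 to 3217 TPM in MYCN ganglia labelled het and 1103 to 2231 TPM in tumors. The tumor sums overlapped those of transgene-free and MYCN wild-type ganglia, and the sums of both MYCN ganglia labelled het lay above those of the tumors and of the MYCN wild-type ganglia. Chga and Chgb together made up 28.66% to 43.48% of the sum in transgene-free ganglia, 43.86% to 47.32% in MYCN wild-type ganglia and 34.09% to 36.88% in those labelled het. In tumors they made up 50.9%, 82.8%, 83.9% and 65.5%, above every ganglion. Tumor replicate 1, with the lowest Chgb, kept the most Cpe and Scg3 of the tumors. The ratio of Scg2 to Chgb was 0.1446 to 0.3474 in the 12 ganglia and 0.00062 to 0.02885 in the tumors.

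**Figure D3:**
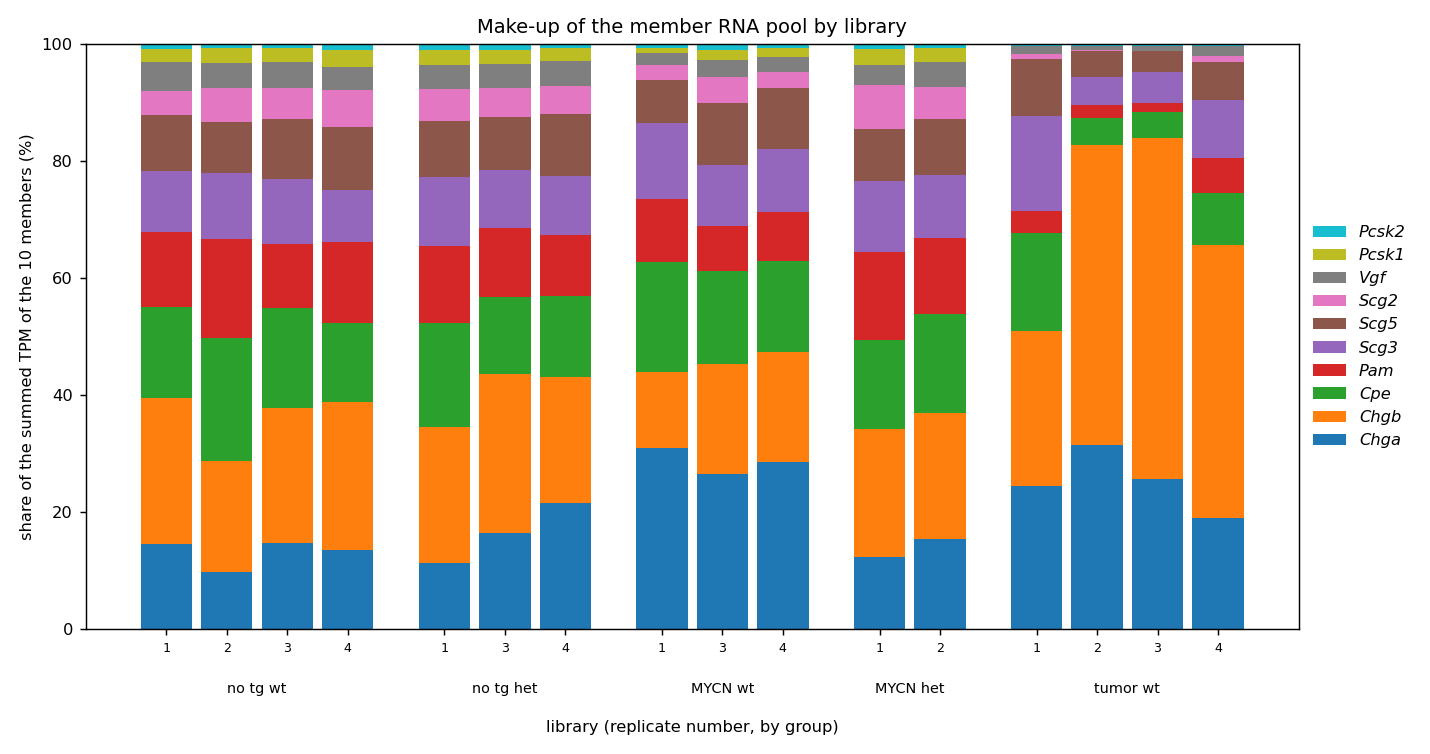
Share of the summed TPM of the 10 genes (y axis, %) that each gene takes in every library, with libraries by group and replicate number on the x axis. The lower bands, Chga and Chgb, take 50.9% to 83.9% in tumors and 28.66% to 47.32% in ganglia, and the Pcsk1 band is not visible in tumors.

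The rest of the secretory pathway was counted by lists of other genes, chosen with earlier results of these data known. Of 16 other processing genes (further convertases, carboxypeptidases and the copper and ascorbate supply of the amidating enzyme), 11 were lower and 1 higher in tumors than in transgene-free ganglia, with a median log2 fold change of −1.09, where 30.9% of all genes were lower and 30.6% higher. Against MYCN wild-type ganglia 10 were lower and 1 higher, with a median of −0.88, where 20.5% of all genes were lower and 14% higher. The same shares stand behind the counts of the next lists. Among 13 tested genes of granule formation, 10 were lower and 2 higher against transgene-free ganglia (median −0.81), and 7 were lower and 0 higher against MYCN wild-type ganglia (median −0.52). Among 17 genes of granule docking and release, 13 were lower and 3 higher against transgene-free ganglia (median −2.54), and 10 were lower and 2 higher against MYCN wild-type ganglia (median −2.02).

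The peptide precursors are the substrates of these enzymes. Of 20 listed, 15 passed the filter, and 7 of them were lower and 3 higher in tumors than in transgene-free ganglia, with a median of −0.96, a share of calls near the 61.4% of all genes. Against MYCN wild-type ganglia 6 were lower and 2 higher, where 34.5% of all genes were called, and against MYCN ganglia labelled het 3 were lower, 1 was higher and 11 did not pass, where 45.5% of all genes were called. Npy, the precursor of neuropeptide Y and the main peptide of sympathetic neurons, was at 1961 to 5468 TPM in transgene-free ganglia, 1126 to 1606 TPM in MYCN wild-type ganglia, 4322 to 6386 TPM in MYCN ganglia labelled het and 13.92 to 108.3 TPM in tumors. Its log2 fold change in tumors was −5.83 ± 0.56 against transgene-free and −4.24 ± 0.55 against MYCN wild-type ganglia. Gal, the galanin precursor, was at 42.12 to 411.6 TPM in transgene-free ganglia and 0.49 to 4.55 TPM in tumors, with a log2 fold change of −6.30 ± 0.79.

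Sst, the somatostatin precursor, had 2 counts over the 4 tumors, a ratio of transgene-free ganglia to tumors of 826 with an exact Poisson 95% interval of 229 to 6820. Against MYCN wild-type ganglia, Vip, the precursor of vasoactive intestinal peptide, fell by 6.07 ± 1.38 and Pdyn, the dynorphin precursor, fell by 5.35 ± 1.27 on the log2 scale, and their calls held over 25 alternatives, with −4.48 to −7.11 for Vip and −2.14 to −7.23 for Pdyn. Vip was at 14.23 to 87.78 TPM in these ganglia and 0.04 to 1.19 TPM in tumors. Pdyn was at 1.17 to 6.55 and 0 to 0.25 TPM, so the sizes of both falls rest on tumor levels near the floor. Against MYCN ganglia labelled het, Rab27b, a small GTPase of granule docking, fell by 4.83 ± 0.37. Cartpt, the CART peptide precursor, went the other way. It was at 0.88 to 20.68 TPM in transgene-free ganglia, 14.32 to 682.2 TPM in MYCN wild-type ganglia and 36.48 to 1021 TPM in tumors, with a log2 fold change of 5.62 ± 1.08 for tumors against transgene-free ganglia. Tumor replicate 1 held 1021 TPM and the others 36.48, 65.53 and 120.8 TPM, and without it the log2 fold change was 3.56 ± 0.85, still past the threshold.

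**Figure D4:**
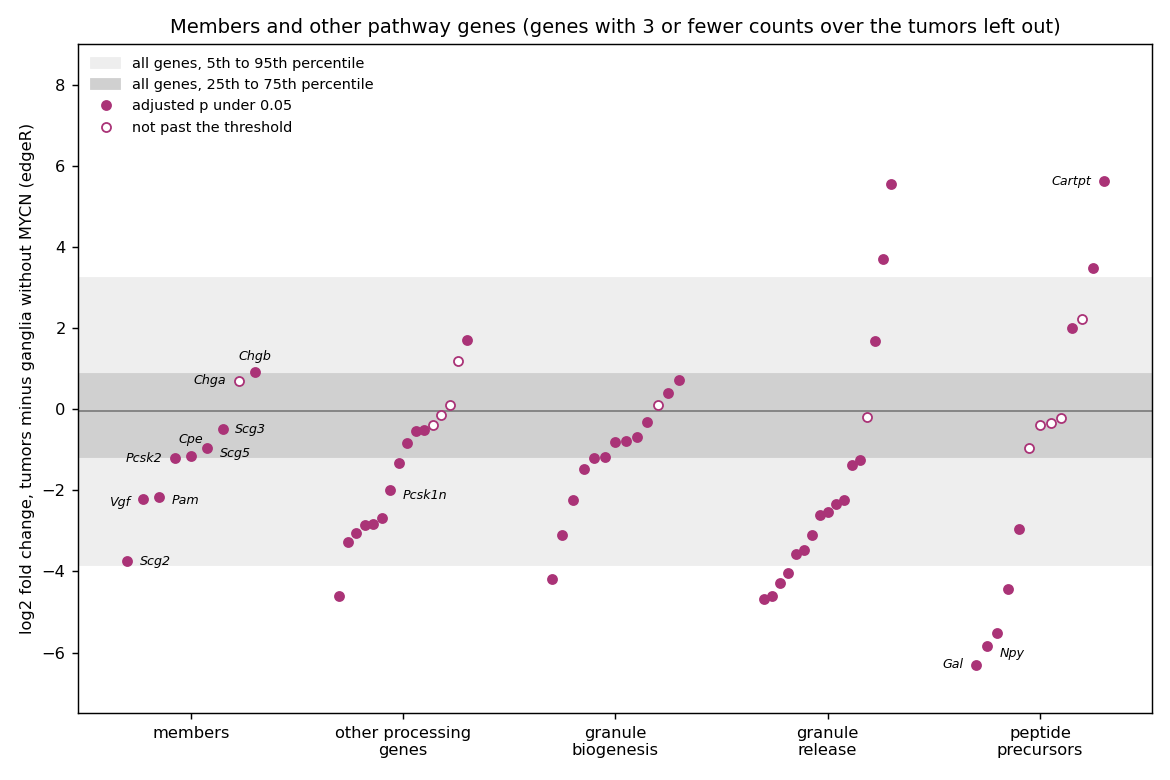
Log2 fold change (edgeR, y axis) of tumors minus transgene-free ganglia for 9 of the 10 genes and for the 4 lists of other pathway genes, each point 1 gene, filled where the adjusted p was under 0.05, over shaded percentile bands of all tested genes. Genes with 3 or fewer counts over the tumors are left out. Most points lie below the all-gene median of −0.06, and Chga, Chgb and Cartpt are among those above it.

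Within ganglia, the effect of Th-MYCN with wild-type Runx1t1 was compared in 3 MYCN and 4 transgene-free libraries. None of the 10 genes passed the test in edgeR, where 0.936% of all genes, 156, passed, 0.834% higher and 0.102% lower. Of the called genes 89.1% were higher, and 47.6% with limma on log2(TPM + 1). At an unadjusted p under 0.05 there were 4 of the 10 and 3302 of all genes, and DESeq2 called 1 of the 10, Vgf, and 1274 of all genes. The count over all genes moved with single libraries, from 0 without MYCN wild-type replicate 1 to 1811 without its replicate 3. The median log2 fold change was −0.42 over the 10 genes and −0.04 over all.

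Markers differed between these groups as well. The 4 proliferation genes had a median log2 difference of 2.88, with overlap and 0 of 4 called (edgeR, adjusted p of 0.0665 or more), Pnmt was higher and Slc18a1 lower without overlap, and the neuron markers averaged 9451 TPM in sum against 11900 TPM. Median log2 differences were −0.92 over fibroblast, −1.19 over endothelial, −1.47 over adrenal cortex and −4.58 over lymphocyte markers. The lymphocyte value rests on replicate 2 of the wild-type transgene-free ganglia, at 475.1 TPM in sum. Replicates 1, 3 and 4 of that group held 3.41, 5.19 and 1.23 TPM, and MYCN wild-type ganglia 2.09 to 4.26 TPM. Adrenal cortex markers summed to 50.55 TPM in replicate 3 of the transgene-free group, 5.37 to 9.39 TPM in its other replicates and 6.84 to 12.58 TPM with the transgene. For myeloid and glial markers the median log2 differences were −0.72 and −0.17. Myeloid sums were 331.3 TPM in wild-type transgene-free replicate 2, 30.02 to 57.9 TPM in the other replicates of its group and 42.18 to 98.76 TPM with the transgene. None of these lists held a called gene. The part of all these markers in the differences below was not tested.

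Pcsk1 (−1.0 ± 0.36, adjusted p = 0.153), Vgf (−0.98 ± 0.30, adjusted p = 0.107), Scg2 (−0.85 ± 0.59, adjusted p = 0.448), Pam (−0.74 ± 0.31, adjusted p = 0.214) and Chgb (−0.63 ± 0.46, adjusted p = 0.465; all edgeR) had lower fitted levels with the transgene. For Pam, all 3 MYCN wild-type ganglia lay below all 4 wild-type transgene-free ganglia, where 4.45% of all genes did so. Pam was also the one gene of the 10 for which they lay below all 7 transgene-free ganglia, as 2.87% of all genes did, and 0 of the 10 lay above all 7, as 3.23% did. For Pcsk1, Vgf, Scg2 and Chgb the MYCN wild-type ganglia lay below the transgene-free libraries other than wild-type replicate 2. This was read after that replicate was seen to stand apart, and the share of all genes was not counted in this way. Without that replicate Vgf passed the test, at −1.19 (edgeR), and its adjusted p over all alternatives ranged from 0.0279 to 0.586.

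Scg5 (−0.20 ± 0.30), Cpe (−0.09 ± 0.24), Pcsk2 (−0.02 ± 0.40) and Scg3 (−0.01 ± 0.24) had fitted differences smaller than their SE, with edgeR adjusted p of 0.752 to 0.993. Chga was on the other side, at 0.92 ± 0.42 (edgeR, adjusted p = 0.245), and its 3 MYCN wild-type libraries lay above all 4 wild-type transgene-free libraries, where 4.72% of all genes did so. The ratio of Chgb to Chga was 0.4167 to 0.7137 in MYCN wild-type ganglia and 0.9946 to 2.087 in all 7 transgene-free ganglia, and Chga took 26.43% to 30.96% of the summed level against 9.679% to 21.59%. In the tumors that ratio was 1.077 to 2.474. Of the other pathway genes, Sytl4, which encodes granuphilin and was named after its values were seen, was the only gene of the 4 lists called in this comparison, at 29.94 to 350.1 TPM against 2.68 to 8.41 TPM in the 4 wild-type transgene-free ganglia (log2 fold change 5.15 ± 0.72). Its call was lost in 8 of 25 alternatives, with adjusted p up to 0.378 (edgeR): with only the groups compared, with the replicate block, and without MYCN wild-type replicate 1 or 4, transgene-free wild-type replicate 1, 3 or 4, or transgene-free het replicate 4. The log2 fold change was 4.37 to 5.67 over these 25. Sytl4 was also at 136.1 to 309.6 TPM in the tumors and at 24.4 and 95.16 TPM in MYCN ganglia labelled het. All 7 transgene-free ganglia held 2.68 to 8.63 TPM.

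In ganglia labelled het, Th-MYCN gave log2 differences of −0.26 to 0.41 over the 10 genes. All had an adjusted p of 1 (edgeR), and 0% of all genes passed. The groups overlapped for all 10 genes, where 10.5% of all genes were higher and 11.9% lower without overlap. At an unadjusted p under 0.05 there were 0 of the 10 and 242 of all genes, and DESeq2 called 14 genes, none of the 10. The group of 2 ganglia limits what this comparison can show.

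Runx1t1 heterozygosity was compared first in transgene-free ganglia, 3 labelled het against 4 wild type. Differences ran from 0.07 for Pam to 0.58 for Pcsk2 with adjusted p of 0.993 to 0.998 (edgeR), and 0% of all genes passed. The groups overlapped for all 10 genes, where 1.45% of all genes were higher and 1.45% lower without overlap. None of the 10 was among the 687 genes at an unadjusted p under 0.05, and DESeq2 called 2 genes, neither among the 10. In MYCN ganglia, 2 labelled het were compared with 3 wild type. Again 0 of the 10 passed, where 0.012% of all genes, 2, passed in edgeR. There were 3 of the 10 and 2094 of all genes at an unadjusted p under 0.05, and DESeq2 called 251 genes.

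Scg2 was 2.95 times higher in mean TPM in ganglia labelled het, with a log2 difference of 1.46 ± 0.68 (edgeR, adjusted p = 0.399). Pcsk1 was 2.55 times higher, at 1.27 ± 0.41 (edgeR, adjusted p = 0.309), and Pam was 2.34 times higher, at 1.11 ± 0.36 (edgeR, adjusted p = 0.309). Vgf differed by 1.01 ± 0.34 (edgeR, adjusted p = 0.319) and Chgb by 0.77 ± 0.53. For 7 of the 10 genes, Pcsk1, Cpe, Pam, Chgb, Scg2, Scg3 and Vgf, both ganglia labelled het lay above all 3 wild-type ganglia, beside 16.5% of all genes, and Chga lay below them (−0.65 ± 0.52, edgeR adjusted p = 0.627), beside 13.9% of all genes. These 2 ganglia had neuron markers at 13570 to 15480 TPM in sum, above the 5780 to 12210 TPM of the MYCN wild-type ganglia. Their chromaffin markers summed to 36.06 to 47.83 TPM against 14.37 to 18.3 TPM, with Slc18a1 higher without overlap (1.80 ± 0.60, edgeR adjusted p = 0.309) and Pnmt lower without overlap (−2.97 ± 1.93, edgeR adjusted p = 0.539). Of the 5 adrenal cortex markers, 3 were higher without overlap, and the cortex sums were 12.42 to 32.22 TPM against 6.84 to 12.58 TPM. The 4 proliferation genes summed to 33.34 to 138 TPM against 47.57 to 726.5 TPM. The part of these shifts in the levels was not tested. The ganglia labelled het may also carry sequence of another strain background, which was not measured and cannot be told apart from the allele.

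The difference between the 2 MYCN effects, with wild-type and with heterozygous Runx1t1, was tested as an interaction term. The lowest adjusted p among the 10 genes was 0.845 (edgeR), and 0% of all genes passed. The fitted interaction was 1.26 ± 0.90 for Scg2, 1.12 ± 0.54 for Pcsk1, 1.04 ± 0.48 for Pam, 0.86 ± 0.45 for Vgf and −1.18 ± 0.67 for Chga. At an unadjusted p under 0.05 there were 1 of the 10 and 937 of all genes, and DESeq2 called 30 genes.

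**Figure D5:**
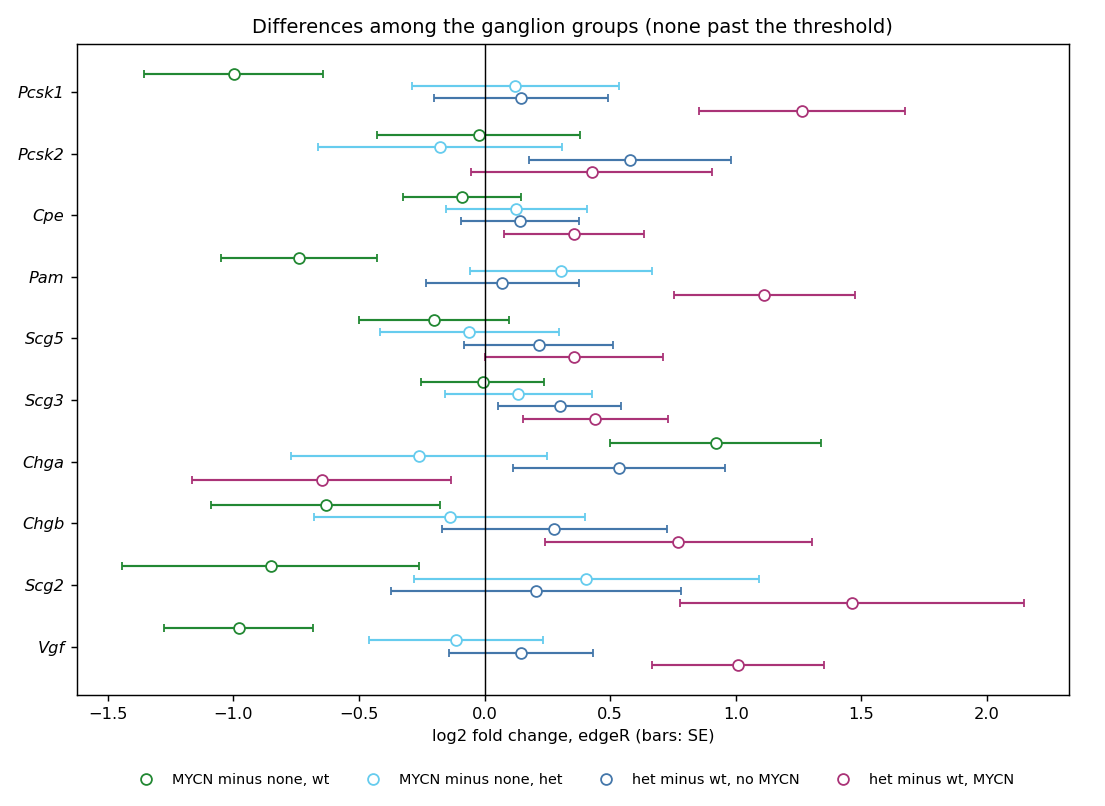
Log2 fold change (edgeR, x axis) of the 10 genes in the 4 comparisons among ganglia, with SE as bars; open points mark that none passed the threshold. Pcsk1, Pam, Scg2 and Vgf lie at −0.74 to −1.0 for MYCN with wild-type Runx1t1 and at 1.01 to 1.46 for het against wild type in MYCN ganglia, and Chga lies on the opposite side in both; these comparisons share the MYCN wild-type ganglia.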

How the data were processed

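Ganglia RNA had been prepared with a stranded total RNA kit (the labels read polyA RNA for the molecule). The kit is named for ganglia, and whether the tumor libraries used it is not known here. Per the study's methods, the authors checked reads with FASTQC 0.11.5, aligned them to mm10 with STAR 2.5 in two-pass mode, used SAMtools 1.3.1 and estimated expression with RSEM 1.2.31; the strand setting is not given in the sources used here. The deposited files give 24411 genes in 16 libraries in expected counts that the authors obtained from RSEM. TPM, as the authors deposited it, is relative to each library's own total and keeps no depth.

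Expected counts were rounded to whole numbers and fitted in edgeR 4.0.16 (R 4.3.3; filterByExpr, TMM, quasi-likelihood test) with the 5 groups over all 16 libraries, 8 contrasts, Benjamini-Hochberg adjustment over the 16665 tested genes and a threshold of 0.05. Errors are SE of log2 fold changes. Ratios for genes with 1 to 3 counts over the tumors pooled the counts and took an exact Poisson interval. PCR reads carry no molecular identifiers, so such intervals cover counting error only. Nothing states that the samples of a group came from separate litters, and p-values measure the spread between these samples. Column headers reading Hom were taken as Runx1t1 wild type, as the sample labels give no homozygous knock-out.

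Alternatives were upper-quartile scaling, RLE size factors, no filter, DESeq2 1.42.0, limma 3.58.1 on log2(TPM + 1), only the groups compared, a replicate block, a depth term, leaving out each library and, added after earlier results were seen, leaving out Rn45s. The 10 genes and the lists were chosen with earlier results of these data known. All 10 were tested in every comparison, and among the ganglia those with the larger fitted differences were described by name. Of the other lists, the rule named, per comparison of tumors with ganglia, the 4 called genes that changed most, given no overlap of groups and an average of 1 TPM or more, plus Pcsk1n and Npy. For genes of the list called in the main test, the p of that test is not printed, since the list was chosen on these libraries. Adjusted p is given for alternatives in which such a call was lost.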

Additional observations from a re-analysis of the deposited data

How the results depend on the processing

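Tumor calls of Pcsk1, Scg2, Vgf, Pam and Cpe held in every alternative against all 3 kinds of ganglia. Against transgene-free ganglia, the Chgb call was lost in limma on TPM, with only the groups compared (adjusted p = 0.064), with the replicate block (adjusted p = 0.0792), with the depth term (adjusted p = 0.13) and without any of transgene-free het replicates 1 and 4, transgene-free wild-type replicate 3, MYCN wild-type replicates 3 and 4, either MYCN het replicate, or tumor replicates 2 and 3. The Scg3 call was lost without the filter (adjusted p = 0.0553), with only the groups compared (0.0696), with the depth term (0.0743) and without Rn45s (0.0798), and when any library other than transgene-free wild-type replicate 2, MYCN het replicate 2 or tumor replicate 1 was left out. Leaving out 1 library gave 7 to 9 called members against transgene-free ganglia, 6 to 7 against MYCN wild-type ganglia, 5 to 8 against MYCN ganglia labelled het (5 without MYCN het replicate 1; Scg5 was also lost without MYCN het replicate 2 or tumor replicate 3, Pcsk2 without tumor replicate 1 or 4, and Scg3 without tumor replicate 2, 3 or 4 and with the depth term) and 0 to 1 for MYCN against none with wild-type Runx1t1, where DESeq2 gave 1. Against MYCN wild-type ganglia, Scg5 was called in limma, with the depth term and without MYCN wild-type replicate 1 or transgene-free wild-type replicate 2. The cause was not tested.

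Counts over all genes moved more. For MYCN against none with wild-type Runx1t1 the 156 genes became 238 with upper-quartile scaling, 1274 in DESeq2, 21 in limma, 0 with only the groups compared, 0 with the replicate block, 308 with the depth term, 236 without Rn45s and 0 to 1811 with 1 library left out (0 without MYCN wild-type replicate 1 or 4 or transgene-free wild-type replicate 1, 3 or 4, 675 without transgene-free wild-type replicate 2 and 1811 without MYCN wild-type replicate 3). With heterozygous Runx1t1 the 0 genes became 14 in DESeq2 and 9 with only the groups compared. For het against wild type, DESeq2 gave 2 in transgene-free ganglia. In MYCN ganglia the 2 genes became 1 with upper-quartile scaling, 1 without the filter, 251 in DESeq2, 23 in limma, 0 with only the groups compared, 1 with the replicate block, 0 with the depth term, 1 without Rn45s and 0 to 320 with 1 library left out (320 without MYCN wild-type replicate 3). The interaction gave 30 in DESeq2 and 0 to 1 with 1 library left out. Tumor counts with 1 library left out were 9520 to 10755 against transgene-free, 3549 to 6755 against MYCN wild-type (lowest without replicate 3 of it) and 4313 to 8275 against MYCN het ganglia (lowest without replicate 1 of it).

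Log2 values that changed sign were all of members not called. Chga in tumors against MYCN wild-type ganglia became −0.48 in limma and −0.092 with the depth term. For MYCN against none with wild-type Runx1t1, Scg3 became 0.00088 with upper-quartile scaling, 0.025 without the filter, 0.017 in limma and 0.013 without Rn45s, and Pcsk2 became 0.0089 without the filter and 0.054 in limma. With heterozygous Runx1t1, the replicate block gave 0.12 for Pcsk2, 0.11 for Chgb, 0.18 for Scg5 and 0.26 for Vgf, and the depth term gave 0.16 for Pcsk2, 0.038 for Chga, 0.13 for Chgb, 0.24 for Scg5 and 0.054 for Vgf. The block gave −0.011 for Pcsk1 in het against wild type without the transgene, and the Pcsk2 interaction became 0.24 with the block and 0.26 with the depth term.

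With 1 library left out, Chga in tumors against MYCN wild-type ganglia ranged from −0.31 to 0.24. For MYCN against none with wild-type Runx1t1 the ranges were −0.26 to 0.32 for Pcsk2, −0.23 to 0.065 for Cpe, −0.19 to 0.18 for Scg3 and −0.44 to 0.0039 for Scg5. With heterozygous Runx1t1 they were −0.17 to 0.37 for Pcsk1, −0.68 to 0.20 for Pcsk2, −0.011 to 0.57 for Pam, −0.34 to 0.06 for Chgb, −0.074 to 0.77 for Scg2, −0.14 to 0.37 for Scg3 and −0.19 to 0.066 for Scg5. For het against wild type without the transgene they were −0.059 to 0.32 for Pcsk1, −0.072 to 0.22 for Pam, −0.019 to 0.37 for Scg5 and −0.068 to 0.40 for Vgf, and in MYCN ganglia −0.11 to 0.80 for Pcsk2. Interaction ranges were −0.69 to 0.22 for Pcsk2, −0.16 to 0.38 for Scg3 and −0.065 to 0.38 for Scg5.

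Same-numbered samples of compared groups correlated at −0.315 to 0.21. These values use deviations from the means of small groups, so they cannot show whether the numbers pair the samples. Depth in ganglia followed the number, and the replicate block gave 8 called members in tumors against transgene-free ganglia. Pcsk1 in tumors is limited by depth to the counting interval given.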
